A study of Homo sapiens with 4 samples.

Results

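The genes described here run the second part of the cell division cycle: the kinases, cyclins, checkpoint proteins, ubiquitin ligase regulators, condensin subunits and cytokinesis factors that take a cell from G2 through mitosis. They were chosen by symbol, 58 in all, and 57 had a feature among the 23786 gene features of the array table, of which 22458 carried a symbol. PTTG1, the securin, was not analysed here. The cells were U87, a long-established glioblastoma line of human origin, grown in medium with serum and measured on 4 arrays, 1 for each condition. A 24-hour pair compared cells given 2 µM crizotinib with cells given vehicle. A 21-day pair compared a culture kept in 1 µM crizotinib with one kept without drug. Crizotinib is an inhibitor of MET, ALK and ROS1, which are receptor tyrosine kinases. The array labels call the 21-day cultures crizotinib-sensitive and crizotinib-resistant, and the protocol gives both the same culture name. They are read here, from the design text, as the control and the drug culture, and the sign of every 21-day difference rests on that reading. Each crizotinib array was set against its own control, and all values below are log2 expression or differences of it.

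In a dividing cell, CDK1 bound to cyclin A or cyclin B drives entry into mitosis, and Polo-like and Aurora kinases build the spindle. Condensin compacts the chromosomes. The spindle checkpoint holds the anaphase-promoting complex, a ubiquitin ligase, inactive until every chromosome is attached, after which cyclin B and securin are destroyed and the sisters part. Most of these genes are transcribed only late in the cycle, under B-MYB, FOXM1 and the MuvB proteins, and their messages are widely used to read how many cells of a culture are cycling. In bulk RNA, fewer cells in G2 and mitosis and less of the message in each such cell cannot be told apart.

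Array medians lay between 4.92 and 4.98, and the median of all values was 4.96. A gene was called at least 2-fold lower or higher when it differed by 1 or more and its higher array was at or above that median. Of 10 glial and glioma markers, VIM, CD44, SOX9, PDPN and NES were above it on every array and the other 5, GFAP, S100B, SOX2, AQP4 and OLIG2, were below it on every array. All 10 were lower in the 21-day control than with vehicle, SOX9 most at -1.34, where 49.3% of all features were lower. Markers of leukocytes, endothelium and epithelium lay mostly below the median of all values, at 6 of 8, 4 of 6 and 5 of 7 genes on every array. CD68, between 10.79 and 11.56, CSF1R, KDR and KRT8 were above it on every array. TEK was above it only in the 21-day control and EPCAM only after 24 hours of crizotinib. Among 7 fibroblast markers, DCN (5.02), LUM (2.54) and PDGFRA (1.66) passed 2-fold upward in the 21-day pair and COL1A1 (-1.16) downward. LUM was also past 2-fold in the 24-hour pair (1.30) and 0.94 higher in the 21-day control than with vehicle. Their summed level on the log2 scale was 10.37 with vehicle, 10.76 after 24 hours of crizotinib, 11.00 in the 21-day control and 11.29 after 21 days of crizotinib. The part of this shift in the results below was not tested. With 1 array per condition no single difference has a replicate check, so higher and lower are said here of single arrays.

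Nearly all of the mitotic genes were lower with crizotinib, moderately after 24 hours and strongly after 21 days. In the 24-hour pair 56 of 57 were below their control, against 51.2% of all features, and 20 were at least 2-fold lower, where 2.13% of all features past the level filter were at least 2-fold lower. The median difference was -0.92, which is 53.0% of the vehicle level, against -0.01 over all features. In the 21-day pair 56 of 57 were again lower, against 48.5% of all features, and 52 were at least 2-fold lower, where 4.08% of all features past the filter were. The median there was -1.95, or 26.0% of the control level, against 0.01 over all features. None was at least 2-fold higher, where 2.88% of features past the filter were at 24 hours and 3.97% at 21 days. The arrays without drug gave a median difference of 0.03 (21-day control minus 24-hour vehicle), and 28 of 57 were lower in the 21-day control, against 49.3% of all features. None was 2-fold apart there in either direction, where 1.38% of features past the filter were lower and 1.68% higher.

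**Figure D1:**
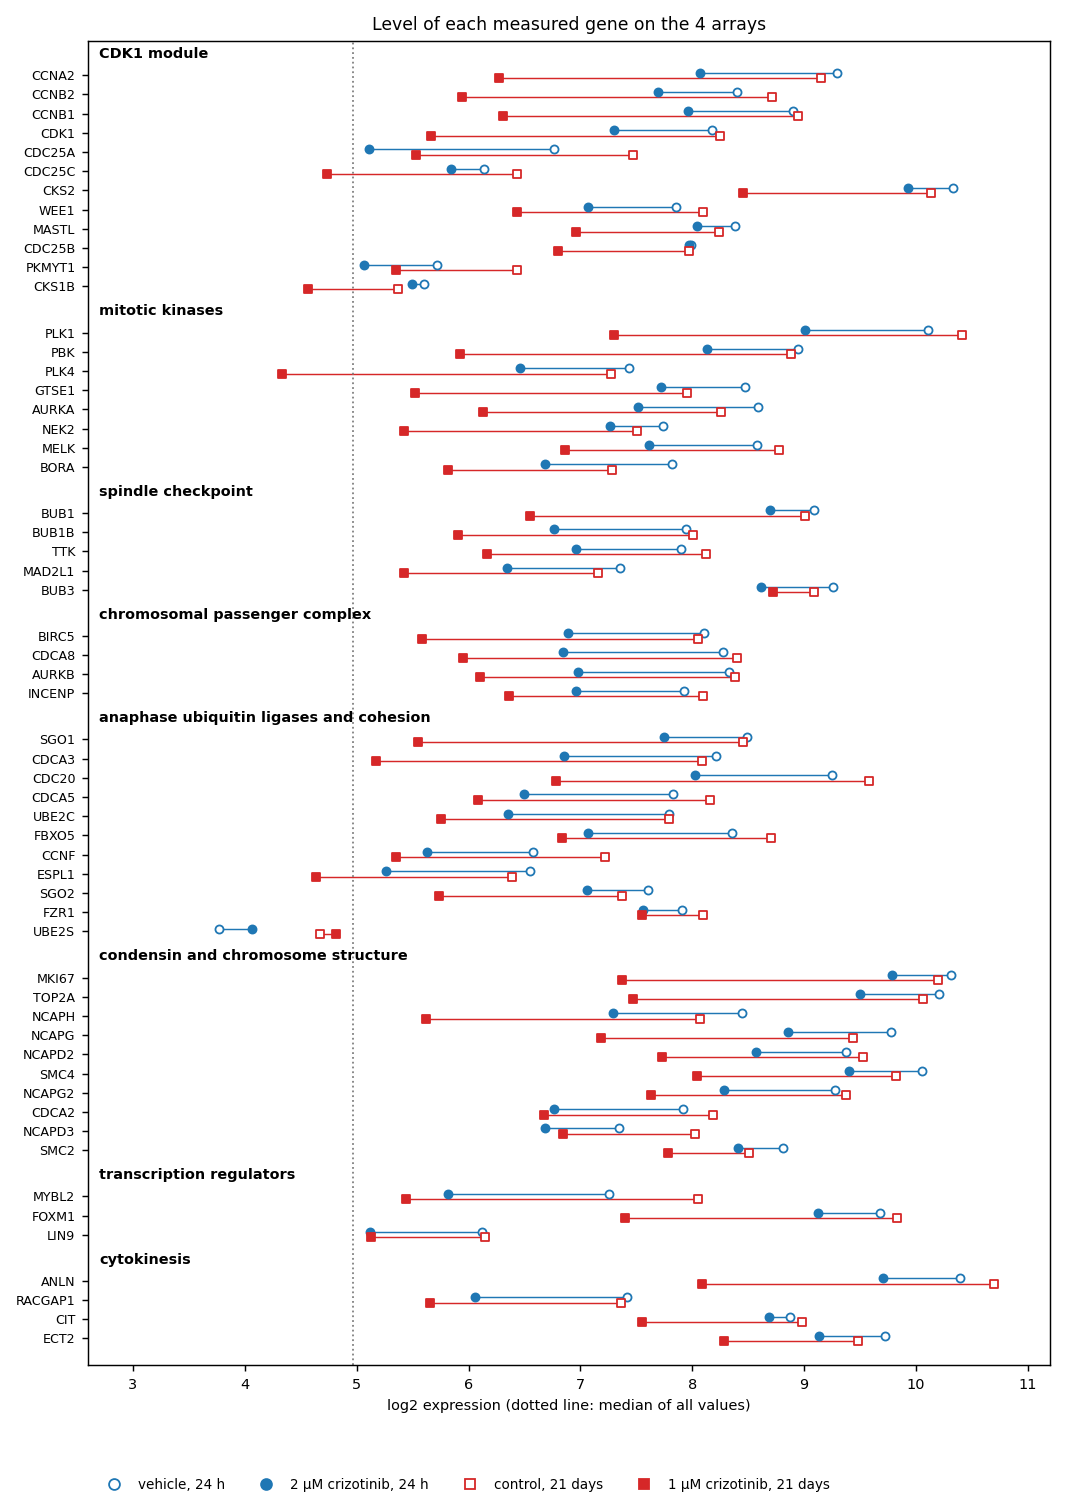
Log2 expression of the 57 measured genes on each array, by role, with circles for the 24-hour pair and squares for the 21-day pair, open without drug and filled with crizotinib. Open symbols of a gene mostly lie close together, and the filled square is the leftmost symbol for 51 genes.

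The order of the arrays was nearly uniform. For 55 of the 57 genes both crizotinib arrays lay below both arrays without drug, against 18.4% of all features, and the exceptions were CKS1B and UBE2S. The 21-day crizotinib array was the lowest of the 4 for 51 genes, against 26.9% of all features. The exceptions were CDC25A, PKMYT1, BUB3, UBE2S, NCAPD3 and LIN9. All 20 genes called in the 24-hour pair were called in the 21-day pair as well, where 1.12% of features past the filter in both pairs were lower in both. Just inside the 2-fold limit at 24 hours stood PLK1 at -1.10, AURKA at -1.07 and MAD2L1 at -1.01, and just outside it LIN9 and NCAPG2, both at -0.99, and PLK4 at -0.97. At 21 days CDC25B at -1.17, PKMYT1 at -1.08 and LIN9 at -1.03 were just inside, and CKS1B at -0.81, SMC2 at -0.72 and FZR1 at -0.54 were just outside.

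A fit across all genes was possible only by treating arrays of different conditions as replicates. With both arrays without drug as 1 control group, limma tested 11891 features whose mean level passed the filter, 56 of them genes described here. Against this group 37 of 56 fell in the 21-day crizotinib array, with adjusted p between 0.0241 and 0.0496 (limma, Benjamini-Hochberg over all features), where 1.14% of features fell. At an unadjusted p of 0.05, 52 of 56 were lower, against 9.01% of features. For the 24-hour array limma called 0 of 56 and the smallest adjusted p was 0.162. At an unadjusted p of 0.05, 40 of 56 were lower there, against 8.45% of features. A second limma fit, with crizotinib over both pairs and the pair as a covariate, also called 0 of 56 (smallest adjusted p 0.153), and at an unadjusted p of 0.05 it had 51 of 56 lower, against 7.71%. Each of these results has 1 residual degree of freedom. The first fit takes the spread of a single drug array from the arrays without drug. The second takes its spread from the gap between the 24-hour and 21-day differences, and these pairs also differ in dose and time. A real difference between the pairs counts as noise there, so its count cannot decide whether the genes fell. Its median SE over these genes was 0.30, against 0.23 for either drug array in the first fit. The 37 calls also rest on the level filter: without it limma called 0 of 57, with a smallest adjusted p of 0.0559.

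Promoters are shown first. Late cell cycle genes are known to carry paired elements. These are the cell cycle genes homology region (CHR), bound by the MuvB complexes, and CCAAT boxes, bound by NF-Y. The genes were chosen by symbol as genes of this kind, and any part of the elements in the differences was not tested. Windows of 250 bases before to 50 after the start came from RefSeq (GRCh38.p14) and matched 46 of the 57 genes. The CHR was searched as TTTGAA or TTCGAA and the CCAAT box as CCAAT, each on both strands. Examples are printed below from the bases before the start, 5′ to 3′ in the direction of the gene, with CHR and CCAAT matches of either strand in capitals. PLK1 and MKI67 are shown for the lowest 21-day differences among genes with both elements before the start, CDC20, CDK1, CDCA8 and ESPL1 for their roles below, and CKS1B as a gene with both that was not called. On GRCh38.p14 the stretches are chr16:23678806-23678875 for PLK1, chr10:60778160-60778195 for CDK1, chr12:53268241-53268283 for ESPL1, chr1:43358793-43358940 for CDC20, chr1:37692391-37692512 for CDCA8 and chr1:154974440-154974666 for CKS1B, all on the plus strand, and chr10:128126433-128126531 on the minus strand for MKI67.
PLK1: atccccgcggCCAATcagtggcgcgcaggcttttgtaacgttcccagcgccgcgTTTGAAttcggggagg
MKI67: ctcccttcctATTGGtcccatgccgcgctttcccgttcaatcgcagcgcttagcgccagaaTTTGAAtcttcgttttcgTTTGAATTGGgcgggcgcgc
CDC20: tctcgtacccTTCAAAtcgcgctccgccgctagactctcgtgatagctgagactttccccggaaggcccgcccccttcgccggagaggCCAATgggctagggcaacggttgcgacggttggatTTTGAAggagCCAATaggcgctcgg
CDK1: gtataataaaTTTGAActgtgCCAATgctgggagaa
CDCA8: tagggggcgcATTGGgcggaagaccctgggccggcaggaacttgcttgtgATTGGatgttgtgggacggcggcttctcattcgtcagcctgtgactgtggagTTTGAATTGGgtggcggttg
ESPL1: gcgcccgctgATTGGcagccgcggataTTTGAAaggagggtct
CKS1B: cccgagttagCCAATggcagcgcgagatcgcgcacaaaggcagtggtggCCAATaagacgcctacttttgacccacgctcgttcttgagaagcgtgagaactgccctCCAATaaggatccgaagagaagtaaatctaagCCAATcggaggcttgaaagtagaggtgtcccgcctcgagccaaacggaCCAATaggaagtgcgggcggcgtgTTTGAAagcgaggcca

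In PLK1 and MKI67 the CHR nearest the start began 29 bases before it, in CKS1B 30 and in ESPL1 31. The distance was not fixed: it was 23 in CDCA8, 65 in CDC20 and 161 in CDK1. In MKI67 and CDCA8 the CHR nearest the start shares its last base with a CCAAT match of the other strand. Of the 46 genes, 31 (67.4%) held a CHR in the window, against 13.5% of 15843 protein-coding genes and 16.6% of all 27305 genes of the table. A CCAAT box was held by 29 (63.0%), against 36.4% of protein-coding genes, and both elements by 21 (45.7%), against 5.57%. An E2F site (any of TTCCCGC, the variant TTGGCGC and the variant TTCGCGC, on either strand) was held by 12 (26.1%), against 14.8%, a TATA box (TATAAA) by 2 (4.35%), against 9.63%, and a forkhead core (TGTTTAC) by 1 (2.17%), against 2.61%. These are matches of letters in 1 window per gene and describe no binding. Before the start CKS1B held 1 CHR and 5 CCAAT boxes, and PLK1 held 1 of each.

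**Figure D2:**
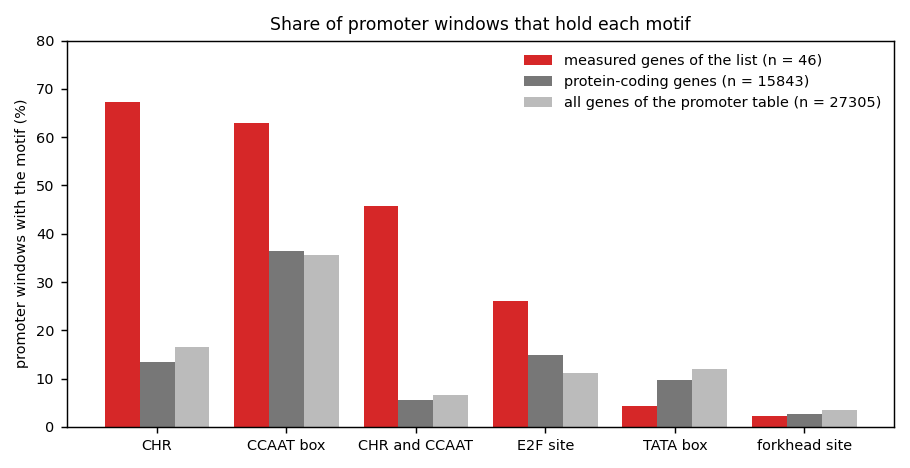
Percentage of promoter windows that hold each motif on either strand, for the 46 matched genes, for protein-coding genes and for all genes of the promoter table. The bars for the CHR and for the CHR with a CCAAT box stand at 67.4% and 45.7% of the 46 genes, against 13.5% and 5.57% of protein-coding genes.

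The CDK1 module was lower on both crizotinib arrays, less so after 24 hours. Its 12 genes had a median difference of -0.68 at 24 hours, with 2 at least 2-fold lower, and of -1.69 at 21 days, with 11. The kinase itself, CDK1 (Entrez gene 983), read 8.18 with vehicle, 7.30 after 24 hours of crizotinib, 8.25 in the 21-day control and 5.66 after 21 days of crizotinib. Both drug arrays were below both controls, by -0.88 and -2.59, and the controls were 0.07 apart. Cyclin B1, CCNB1 (Entrez gene 891), its mitotic partner, read 8.90, 7.96, 8.94 and 6.31 in the same order, so the differences were -0.93 and -2.63. Cyclin A2, CCNA2 (Entrez gene 890), which acts in S phase and at mitotic entry, read 9.29, 8.07, 9.15 and 6.27. It had the lowest 21-day difference of the module, -2.88, and at 24 hours it differed by -1.22. Cyclin B2 (CCNB2) differed by -0.71 and -2.77.

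The CDC25 phosphatases, which remove the inhibitory phosphates from CDKs, did not move alike. CDC25A (Entrez gene 993), which acts at both the S phase and the mitotic transition, read 6.76 with vehicle, 5.11 after 24 hours of crizotinib, 7.47 in the 21-day control and 5.53 after 21 days of crizotinib. Its 24-hour difference, -1.65, was the lowest of all 57 genes, and its 21-day difference was -1.95, but the controls were also 0.71 apart. CDC25B (Entrez gene 994), the first to act at mitotic entry, read 7.98, 7.97, 7.97 and 6.80. Only its 21-day crizotinib array stood apart, at -1.17, and the other 3 lay within 0.02 of each other. CDC25C (Entrez gene 995) read 6.14, 5.85, 6.43 and 4.74, with differences of -0.30 and -1.69, and its 21-day drug value was below the median of all values. The kinases that put those phosphates on CDK1 were lower as well: WEE1 by -0.78 and -1.66, and PKMYT1 by -0.66 and -1.08. The controls of PKMYT1 were 0.71 apart, more than its 24-hour difference. MASTL, the Greatwall kinase that restrains the phosphatase opposing CDK1, read 8.38, 8.04, 8.24 and 6.96.

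The small CDK subunits CKS1B and CKS2, close relatives, showed unequal sizes. CKS2 differed by -0.40 and -1.68. CKS1B (Entrez gene 1163) read 5.60 with vehicle, 5.50 after 24 hours of crizotinib, 5.37 in the 21-day control and 4.57 after 21 days of crizotinib. Its 24-hour drug value lay between the controls, and its 21-day difference of -0.81 came from levels near the median of all values.

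The lowest 21-day differences of single genes, those of PLK1, PBK and PLK4, were found among the mitotic kinases and their partners. All 8 genes of the group were at least 2-fold lower at 21 days, with a median of -2.28, and 3 at 24 hours, with a median of -0.96. PLK1 (Entrez gene 5347), the Polo-like kinase that acts from mitotic entry to cytokinesis, read 10.10 with vehicle, 9.01 after 24 hours of crizotinib, 10.41 in the 21-day control and 7.30 after 21 days of crizotinib. The 21-day difference, -3.11, was the lowest of all 57 genes and amounts to 11.6% of the control level. In limma, with the arrays without drug as 1 group, PLK1 fell by 2.96 (SE 0.25, adjusted p = 0.0241).

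PBK (Entrez gene 55872), a mitotic MAPKK-like kinase, read 8.95, 8.13, 8.88 and 5.92, and PLK4 (Entrez gene 10733), the kinase that starts centriole duplication, read 7.43, 6.46, 7.28 and 4.33. Their 21-day differences were -2.96 and -2.95, and the 21-day drug value of PLK4 lay below the median of all values. AURKA (Entrez gene 6790), the Aurora kinase of spindle poles, read 8.58, 7.52, 8.26 and 6.13, with differences of -1.07 and -2.13. BORA, which helps AURKA activate PLK1, was at -1.14 and -1.47, and its controls were 0.53 apart, the 21-day one lower. NEK2, the kinase of centrosome separation, was at -0.47 and -2.08, and MELK at -0.96 and -1.91. GTSE1, a microtubule-associated protein of G2 and mitosis, was at -0.75 and -2.44. Its 21-day control differed from vehicle by -0.51, and with that control in place of vehicle its 24-hour difference was -0.24.

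The 5 spindle checkpoint genes were lower on both crizotinib arrays, with medians of -0.94 and -1.96, and 4 were at least 2-fold lower at 21 days. BUB1B (Entrez gene 701), which encodes BubR1 of the mitotic checkpoint complex, read 7.94 with vehicle, 6.77 after 24 hours of crizotinib, 8.01 in the 21-day control and 5.91 after 21 days of crizotinib. It and MAD2L1, the checkpoint protein MAD2, were at least 2-fold lower in both pairs, at -1.17 and -2.10 for BUB1B and -1.01 and -1.73 for MAD2L1. The kinase TTK (MPS1), at the top of the checkpoint, was at -0.94 and -1.96, and the kinetochore kinase BUB1 at -0.39 and -2.46, among the widest gaps between the pairs. BUB3 (Entrez gene 9184), the adaptor that brings BUB1 and BubR1 to kinetochores, read 9.25, 8.61, 9.09 and 8.72. It was the 1 gene of the 57 with a lower 24-hour (-0.64) than 21-day difference (-0.37).

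The chromosomal passenger complex, which corrects faulty attachments and later guides cytokinesis, had the lowest 24-hour median of the 8 roles, -1.28, with 3 of its 4 genes at least 2-fold lower. At 21 days its median was -2.36 and all 4 were called. Its kinase AURKB (Entrez gene 9212) read 8.32 with vehicle, 6.98 after 24 hours of crizotinib, 8.38 in the 21-day control and 6.10 after 21 days of crizotinib. CDCA8 (Entrez gene 55143), which encodes borealin, read 8.28, 6.84, 8.40 and 5.95. The differences were -1.34 and -2.28 for AURKB and -1.43 and -2.45 for CDCA8, with controls at most 0.12 apart. Survivin (BIRC5) was at -1.22 and -2.46, and the scaffold INCENP at -0.96 and -1.73.

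**Figure D3:**
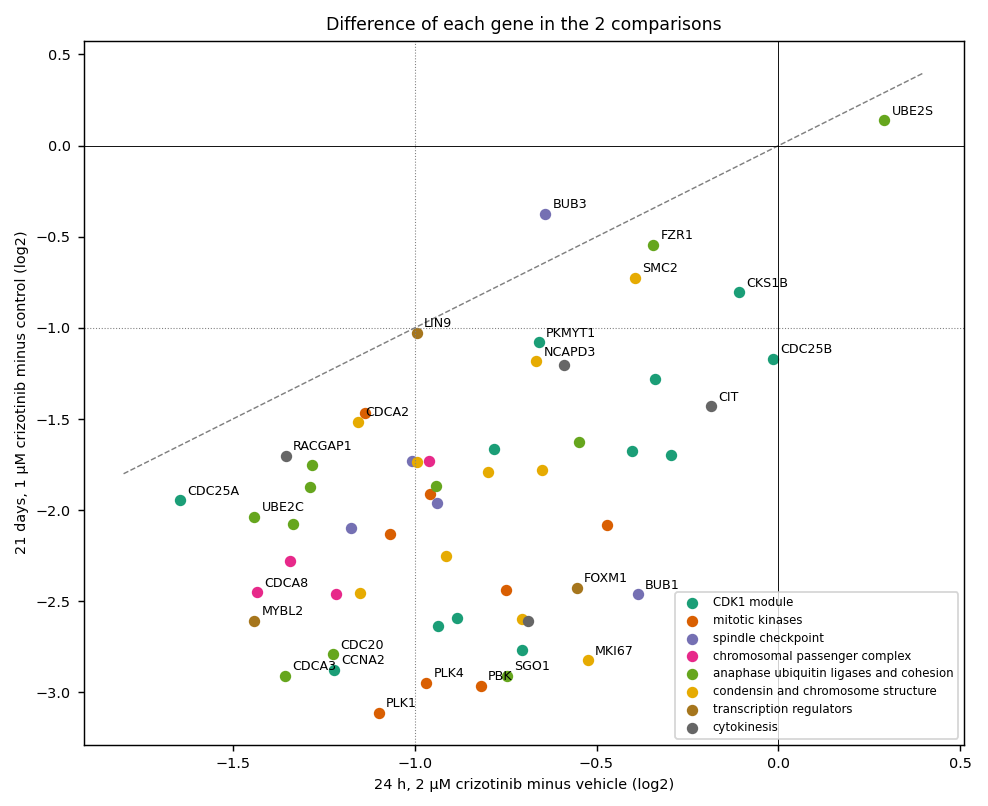
Difference of each of the 57 genes in the 24-hour pair (x axis) and the 21-day pair (y axis), in log2 units, coloured by role, with dotted lines at 2-fold lower and a dashed line where the differences are equal. All points but that of BUB3 lie below the dashed line, CDC25A is farthest left at -1.65 and PLK1 lowest at -3.11.

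Among regulators of the anaphase-promoting complex and of cohesion, 6 of 11 were at least 2-fold lower at 24 hours, with a median of -1.23, and 9 of 11 at 21 days, with a median of -1.87. CDC20 (Entrez gene 991), the coactivator that starts anaphase, read 9.25 with vehicle, 8.02 after 24 hours of crizotinib, 9.58 in the 21-day control and 6.79 after 21 days of crizotinib. FZR1 (Entrez gene 51343), the CDH1 coactivator that keeps the ligase active from mitotic exit through G1, read 7.91, 7.56, 8.09 and 7.55. CDC20 thus differed by -1.23 and -2.79, whereas FZR1 was called in neither pair, at -0.34 and -0.54.

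UBE2C (Entrez gene 11065), the ubiquitin-conjugating enzyme that starts chains on substrates of the complex, read 7.79, 6.35, 7.79 and 5.75. Its difference of -1.44 at 24 hours was among the 3 lowest of the 57 genes. UBE2S (Entrez gene 27338), the enzyme that lengthens those chains, read 3.77, 4.06, 4.67 and 4.81. All of these values are below the median of all values, the drug array was the higher one in both pairs, by 0.29 and 0.14, and the controls were 0.90 apart, so no direction is read from them. FBXO5 (EMI1), an inhibitor of the complex, was at -1.29 and -1.87, and cyclin F (CCNF), a ubiquitin ligase subunit, at -0.94 and -1.87 with controls 0.65 apart.

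CDCA3 (Entrez gene 83461), a cell cycle F-box-like protein, read 8.21 with vehicle, 6.86 after 24 hours of crizotinib, 8.09 in the 21-day control and 5.18 after 21 days of crizotinib. It was the 1 gene among the 6 lowest of both pairs, at -1.36 and -2.91. Shugoshin 1, SGO1 (Entrez gene 151648), which protects centromeric cohesion, read 8.49, 7.74, 8.46 and 5.55, and its differences were -0.75 and -2.91. Its relative SGO2 was at -0.55 and -1.63. Separase (ESPL1), the protease that cuts cohesin, was at -1.28 and -1.75, with a 21-day drug level of 4.63, and sororin (CDCA5), which stabilizes cohesin, at -1.33 and -2.07.

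Genes of chromosome structure had medians of -0.75 at 24 hours and -1.79 at 21 days, with 2 and 9 of 10 at least 2-fold lower. TOP2A (Entrez gene 7153), the topoisomerase that untangles sister chromatids, read 10.20 with vehicle, 9.50 after 24 hours of crizotinib, 10.06 in the 21-day control and 7.47 after 21 days of crizotinib. MKI67 (Entrez gene 4288), the Ki-67 protein that coats mitotic chromosomes, read 10.31, 9.79, 10.19 and 7.37. Both were modestly lower at 24 hours, by -0.71 and -0.52, and 6.05-fold and 7.07-fold lower at 21 days. The gap between the pairs was the widest of the 57 genes for MKI67, at -2.30 (21-day minus 24-hour difference). CDCA2, which brings a phosphatase to Ki-67-coated chromosomes at mitotic exit, was at -1.15 and -1.52.

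Condensin subunits were lower in unequal steps. SMC2 (Entrez gene 10592), an ATPase subunit shared by both condensins, read 8.81, 8.41, 8.51 and 7.78, so its differences of -0.39 and -0.72 were not called. Its partner SMC4 was at -0.65 and -1.78. The subunits of condensin I were at -1.15 and -2.45 for NCAPH, -0.92 and -2.25 for NCAPG, and -0.80 and -1.79 for NCAPD2. Those of condensin II were at -0.99 and -1.74 for NCAPG2 and -0.67 and -1.18 for NCAPD3. The controls of NCAPD3 were 0.68 apart, about its 24-hour difference, and its 21-day drug level of 6.84 was above the 6.68 of the 24-hour drug array.

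The 3 transcription regulators among the 57 genes were lower too, and other partners of MuvB are given further below. MYBL2 (Entrez gene 4605), which encodes B-MYB, read 7.25 with vehicle, 5.81 after 24 hours of crizotinib, 8.05 in the 21-day control and 5.44 after 21 days of crizotinib. FOXM1 (Entrez gene 2305), the forkhead factor of G2 and mitosis, read 9.68, 9.12, 9.83 and 7.40. Their 21-day differences were close, -2.61 and -2.43, and their 24-hour differences were not, -1.44 and -0.55, while the controls of MYBL2 were 0.79 apart. LIN9 (Entrez gene 286826), a core MuvB subunit, read 6.12, 5.12, 6.15 and 5.13. It was close to 2-fold lower in both pairs, at -0.99 and -1.03.

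Of the cytokinesis genes, all 4 were at least 2-fold lower at 21 days, with a median of -1.56, and 1 at 24 hours, with a median of -0.64. RACGAP1 (Entrez gene 29127), the GTPase-activating subunit of centralspindlin, read 7.41 with vehicle, 6.06 after 24 hours of crizotinib, 7.36 in the 21-day control and 5.66 after 21 days of crizotinib. CIT (Entrez gene 11113), the citron kinase of the midbody, read 8.87, 8.68, 8.98 and 7.55. RACGAP1 differed by similar amounts in the pairs, -1.35 and -1.70, whereas CIT was at -0.19 and -1.43. Anillin (ANLN), which scaffolds the contractile ring, was at -0.69 and -2.61, and the RhoA activator ECT2 at -0.59 and -1.21.

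The size of the 21-day difference was only loosely tied to that at 24 hours. Across the 57 genes Pearson's r was 0.50 and Spearman's rho 0.42, against 0.32 and 0.23 over all features. These genes share the same 4 arrays and are not independent, so no p is given. For 56 of 57 genes the 21-day difference was the lower one, against 49.6% of all features, but the pairs differ in dose, time and control culture. The gap between the pairs exceeded 2 for MKI67, SGO1, PBK, BUB1, CCNB2 and PLK1. It was smallest in size for LIN9 at -0.03, UBE2S at -0.15 and FZR1 at -0.20, and above 0 only for BUB3 at 0.27.

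The other lists of cell division genes that were examined moved by different amounts. These lists were drawn up with earlier results of these data known, so the contrast between them is a description only. Of 55 genes of kinetochores, centromeres and the spindle, 14 were at least 2-fold lower at 24 hours and 48 at 21 days. Of all features past the level filter, 2.13% and 4.08% were. The medians of the 55 were -0.82 and -2.11. The lowest at 21 days were the NDC80 complex subunit SPC25 at -3.33 and the spindle protein DLGAP5 at -3.09. In limma 35 of the 55 fell at 21 days, against 1.14% of features, and 0 at 24 hours. At 24 hours 40 were past an unadjusted p of 0.05 in either direction, against 16.3% of features. Among 43 G1/S and DNA replication genes, 26 were at least 2-fold lower at 24 hours and 31 at 21 days, against the same 2.13% and 4.08%. Their medians were -1.08 and -1.28. All 43 were below their control in both pairs, where 51.2% of all features were at 24 hours and 48.5% at 21 days. GINS2, a helicase subunit, was at -2.12 and -1.99, and the initiation factor MCM10 at -1.85 and -2.76.

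Other genes that serve the same machinery were mostly within 2-fold. Of all features past the level filter, 2.13% were at least 2-fold lower at 24 hours and 4.08% at 21 days. The 14 core subunits of the anaphase-promoting complex had medians of -0.07 and -0.04, and only ANAPC1 was called, at -1.01 after 21 days. Cohesin and its loaders had medians of -0.11 and -0.48, with SMC1A at -1.02 after 21 days as the 1 call among 11 genes. RAD21 was next there, at -0.93. At 21 days 9 of these 11 genes were below their control and 2 above it, where 48.5% of all features were below. The partners of MuvB and of the DREAM repressor had medians of -0.15 and -0.33. Of these 15, 1 was called, the pocket protein RBL1 at -1.47 after 21 days, and the highest then was LIN37 at 0.69. Mitotic phosphatases had medians of -0.27 and -0.20, with PPP1CC at -1.07 after 21 days as the 1 call among 13. Below their control at 21 days were also 10 of the 14 core subunits, 12 of the 15 partners and 9 of the 13 phosphatases. Over these 4 lists limma called 0 of 53 genes for either array, and at an unadjusted p of 0.05 it had 6 at 24 hours and 12 at 21 days in either direction, where 16.3% and 16.9% of all features were.

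CDK inhibitors and interphase CDKs gave medians of -0.12 and -0.15 over 14 genes. CDKN1A, which encodes the CDK inhibitor p21, read 7.03 with vehicle, 6.94 after 24 hours of crizotinib, 6.87 in the 21-day control and 7.79 after 21 days of crizotinib. The 21-day drug array was thus the highest, by 0.92 over its control, which is short of 2-fold. CDKN2A, the p16 and ARF locus, was below the median of all values on every array, between 3.67 and 3.84. CDK2, which drives S phase, was lower by the same amount in both pairs, at -1.05.

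**Figure D4:**
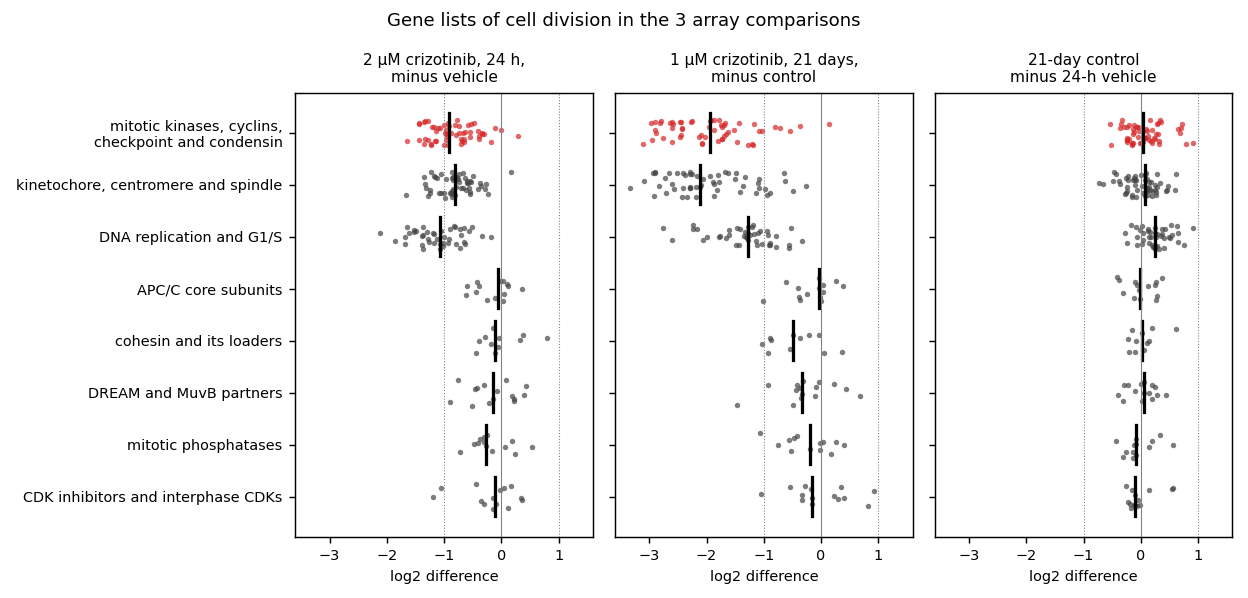
Log2 difference of every measured gene of 8 lists in the 24-hour pair, the 21-day pair and between the arrays without drug; each point is a gene, the bar is the median of the list, and dotted lines mark 2-fold. The medians of the mitotic genes are -0.92, -1.95 and 0.03, those of the core subunits of the anaphase-promoting complex -0.07, -0.04 and -0.02.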

How the data were processed

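Biotin-labelled total RNA of 4 U87 cultures was measured on Affymetrix arrays after whole-transcript labelling. The authors deposited log2 expression values, made with RMA (affy 1.36.1, R 2.15.1), per the submitters' processing notes. Features carry Entrez gene numbers and 1 symbol at most, from the platform's gene table. Only these values were analysed here; depth has no counterpart on arrays, so the number of arrays limits precision.

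Differences were taken per pair, with no p-value. limma 3.58.1 in R 4.3.3 (lmFit, eBayes, Benjamini-Hochberg at 0.05) was fitted on 11891 features with a mean at or above 4.96, after a test on simulated data. Nothing says that cultures were independent, so p-values cover the spread of these arrays alone. Genes given on every array were the 6 lowest and 6 highest of each pair, those not called at 21 days and 13 defining members (CDK1, CCNB1, PLK1, AURKA, AURKB, BUB1B, CDC20, TOP2A, MKI67, SMC2, FOXM1, MYBL2, LIN9). From other lists, genes were taken from the 2 lowest and 2 highest, with CDKN1A and CDKN2A. Genes and lists were chosen with earlier results of these data known. Alternatives covered the control array, fold limit, level filter, centring, normalization and the limma prior. The promoter windows were searched with Python 3.11.15.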

Additional observations from a re-analysis of the deposited data

Results flagged for a closer look

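Cyclin D1 (CCND1), of the list of CDK inhibitors and interphase CDKs, stood out because it moved in opposite directions in the pairs: its difference was -1.19 at 24 hours and 0.82 at 21 days. It read 10.79 with vehicle, 9.59 after 24 hours of crizotinib, 10.56 in the 21-day control and 11.37 after 21 days of crizotinib. The difference between the pairs was not tested, since each rests on 1 array per condition.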

How the results depend on the processing

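The count of genes at least 2-fold lower at 24 hours depended on the fold limit: it was 20 at 2-fold and 43 at 1.5-fold. Under the other settings it ran from 19 to 26, the latter with the 21-day control in place of the vehicle array. That setting did not only add genes: AURKA, BORA, MAD2L1 and NCAPH, called against vehicle, were no longer 2-fold lower. The 21-day count of 52 ran from 49, with both arrays of the pair above the level filter, to 54 at 1.5-fold. The medians ran from -0.95 to -0.90 at 24 hours and from -2.00 to -1.85 at 21 days, and the drug-free median from -0.01 to 0.04. The limma count at 21 days was 37, 39 with a trend on mean level, 38 after renewed quantile normalization and 0 without the level filter, where 23786 features enter the adjustment and the prior. The limma counts of 0 for the 24-hour array and for both pairs were 0 in all 4 settings. No gene called in a pair changed sign under another control, centring or normalization. With the 21-day control in place of vehicle, single 24-hour differences moved by up to 0.90. The labels give no replicate numbers, so the only paired fit is the limma fit with the pair as a covariate. Leaving out the other crizotinib array, a setting chosen after seeing the data, gave 37 genes at 21 days and 0 at 24 hours, as it must, since that array adds no residual; leaving out a drug-free array, or any array of the paired fit, leaves no residual degree of freedom.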

Other observations

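The promoter windows allow the genes to be set side by side by motif, as a description with no test. The 21 genes with both a CHR and a CCAAT box had median differences of -0.80 at 24 hours and -2.44 at 21 days, against -0.93 and -1.91 for the 25 without the pair. By the CHR alone, 31 genes with it had -0.80 and -2.07, and 15 without it -0.96 and -1.91. By the CCAAT box alone, 29 genes with it had -0.88 and -2.28, and 17 without it -0.92 and -1.78. The 12 with an E2F site had -0.92 and -1.86, against -0.77 and -2.00 for the 34 without one. At 21 days the former ran from -2.91 to -1.03 and the latter from -3.11 to 0.14. The ranges overlapped widely: with both elements the 21-day differences ran from -3.11 to -0.81, and without the pair from -2.95 to 0.14. Counting every annotated start of a gene, 36 of 46 held a CHR, against 19.5% of all genes of the table. The 11 genes without a window were WEE1, PKMYT1, AURKA, PBK, BUB3, TTK, BIRC5, UBE2C, CDCA2, FOXM1 and RACGAP1.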
